A study of Schizosaccharomyces pombe with 2 samples.

Results

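The genes near the left end of chromosome I of fission yeast, Schizosaccharomyces pombe, were taken as all genes whose systematic name begins with SPAC212, SPAC977, SPAC1F8, SPAC11D3 or SPAC5H10, less 9 genes that the choice left out. The gene table of assembly ASM294v3 held 60 such genes, 55 protein-coding and 5 pseudogenes, and 55 of the 60 had a matched probe. The 5 without one were SPAC212.12, SPAC977.18, nhe1, SPAC11D3.19 and otg1. Of the 55 with a probe, 51 were bright enough to be tested, out of 4903 genes tested in all. In each of 2 spotted arrays, a wild-type strain with the plasmid pDUAL-Ssn6, which expresses the corepressor subunit Ssn6, was hybridised against a wild-type strain with the empty pDUAL plasmid. Both cultures grew logarithmically at 30 degrees in minimal medium lacking uracil, which keeps the plasmids under selection. Per the labels, the pDUAL-Ssn6 culture carried Cy3 and the empty-plasmid culture Cy5 on array 1, and the dyes were exchanged on array 2.

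Subtelomeres are the stretches next to the chromosome ends. In fission yeast they are packaged in repressed chromatin that histone deacetylases help to keep silent, and several of their genes are known to come on during nutrient starvation or stress. They hold gene families with related copies at other chromosome ends, among them helicase genes and small membrane protein genes. Ssn6 acts with the Tup11 and Tup12 proteins as a corepressor that DNA-binding factors bring to promoters.

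The files call the array channels A and B, and state neither dye nor culture for them. On each array the ssn6 spots were brighter in channel B, with log2 ratios of 1.91 and 2.18 (mean 2.04 ± 0.19, SD, n = 2, adjusted p = 6.65e-05), so channel B is likely the Ssn6 culture and channel A the empty-plasmid culture. Across the 4903 genes the arrays' ratios ran the same way (r = 0.805), whereas a dye swap with fixed channels would turn them round. Directions are therefore given by channel. Each ratio is the log2 of the channel B signal over the channel A signal after loess normalization, and a dye effect may not cancel in the mean. Of 10016 gene spots, 9803 on array 1 and 9996 on array 2 had signal. The design text names 2 independent RNA preparations without tying them to arrays or to separate cultures, so the p-values reflect only how far 2 arrays differed, possibly for technical reasons. A ratio from a culture's pooled RNA cannot tell apart fewer cells that express a gene and less RNA per cell.

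Genes near the left end of chromosome I moved in both directions. Of the 51 tested, 7 were higher in channel B, 15 were lower and 29 did not pass the adjusted p of 0.05, so that 43.1% passed. Over all genes tested 27.9% passed, 11.3% higher and 16.6% lower. Changes of 1.5-fold or more with the same sign on each array were found for 5 members higher and 9 lower, 14 in all (27.5%), against 6.2% higher and 11.5% lower over all genes (17.7% together). All 14 also passed the adjusted p. With array 1 alone, 6 members were 1.5-fold higher and 17 lower, and with array 2 alone 12 were higher and 14 lower. Counts on a single array are not given over all genes, so these say nothing particular to the members. The median log2 ratio was -0.17 over the members and 0.01 over all genes, and the median size of the ratio regardless of direction was 0.46 and 0.32. No member had a saturated spot. With the authors' own normalized values in place of the loess values, 0 members passed (24 had an unadjusted p under 0.05 in limma), and 0 of 4860 genes did. Only 1 spot per member and array was used there. Under those values 6 members were 1.5-fold higher and 12 lower on both arrays, with a median of -0.17. The matching share over all genes is not given. With the sign of array 1 turned, 0 members passed, and 0 of 4903 genes did.

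**Figure D1:**
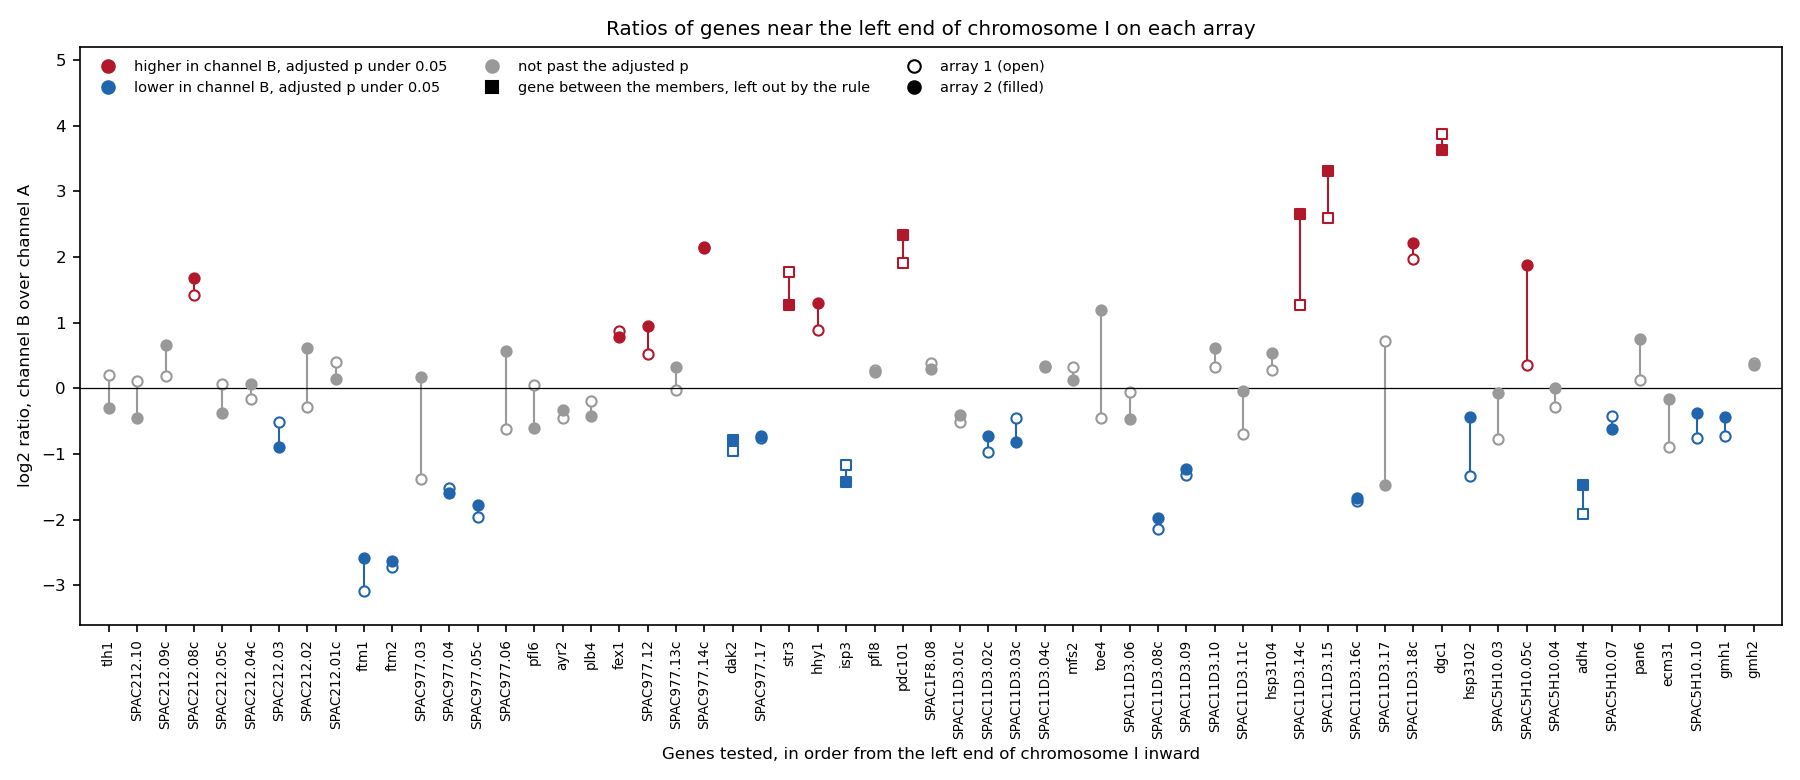
Channel B over channel A on the log2 scale (vertical axis) for every tested gene of the region in order from the chromosome end inward (horizontal axis). Open symbols are array 1, filled symbols array 2, squares the genes left out by the choice. Higher and lower genes are interspersed along the stretch, with means from -2.83 for ftm1 to 2.14 for SPAC977.14c among the members.

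With the left-out genes counted in, 59 genes of the region were tested and 30 passed, where 27.9% of all genes tested passed. Among neighbouring tested genes there were 11 pairs with the same call, 4 higher and 7 lower, and no longer run. There were 5 pairs of neighbouring tested genes with opposite calls, each with a left-out gene. These were SPAC977.14c (higher) and dak2 (lower), SPAC977.17 (lower) and str3 (higher), hhy1 (higher) and isp3 (lower), SPAC11D3.15 (higher) and SPAC11D3.16c (lower), and dgc1 (higher) and hsp3102 (lower). Such pairs were not counted over other stretches.

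Of the 12 telomere-proximal SPAC212 genes, 9 were tested. SPAC212.08c was higher, SPAC212.03 was lower and the remaining 7 missed the threshold, so that 22.2% passed, against 27.9% of all genes tested. The median ratio was -0.04. The outermost gene is tlh1, for a RecQ-type helicase linked to telomeres. Its ratios were 0.20 on array 1 and -0.29 on array 2 (adjusted p = 0.866), so the arrays did not share a direction. Pseudogenes SPAC212.10, SPAC212.09c and SPAC212.05c had mean ratios of -0.17, 0.42 and -0.16, and none of them passed. All 4 spots of SPAC212.09c were brighter in channel B before normalization, and with median centring in place of loess it was called higher at 1.09 (adjusted p = 0.000823).

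SPAC212.08c is a protein-coding gene of no named function. Its signal was 187586.5 in channel B against 63514 in channel A on array 1, and 286689 against 70805 on array 2. Channel B was brighter in all 4 spots. The ratios of 1.42 and 1.68 gave a mean of 1.55 ± 0.19 (adjusted p = 0.000294), which is 2.93-fold. Its nearest tested neighbours on either side, SPAC212.09c and SPAC212.05c, are among the genes that did not pass. SPAC212.03 was lower at -0.71 ± 0.27 (adjusted p = 0.0173). Its signal was 13992.5 in channel B against 19190.5 in channel A on array 1, and 12000 against 19418 on array 2. In channel B it did not rise well above background on either array, so no fold is given. Before normalization its channel A signal was only 0.963-fold the background limit of channel B on array 1 and 1.0998-fold on array 2. Its array 1 spots differed in sign, at -1.18 and 0.156. SPAC212.02, of no named function, had -0.29 on array 1 and 0.62 on array 2 and did not pass.

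Next inward lie the genes ftm1 and ftm2, which share a family name. They had the lowest ratios of all members. The ftm1 signal was 148428 in channel B against 905727 in channel A on array 1, and 157694.5 against 702000 on array 2. The log2 ratios of -3.082 and -2.58 gave -2.83 ± 0.35 (adjusted p = 1.99e-05), so that channel A was 7.12-fold brighter. The ranges of the channels did not overlap, and the duplicate spots differed by 0.06 on array 1 and 0.04 on array 2 on the log2 scale.

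The ftm2 signal was 17359.5 in channel B against 92883.5 in channel A on array 1, and 17169.5 against 91830.5 on array 2. In channel B it was not well above background on either array, so its fold is not exact. Its ratio of -2.68 ± 0.07 passed (adjusted p = 1.45e-05). Before normalization its channel A signal was 4.66-fold the background limit of channel B on array 1 and 5.201-fold on array 2. The SPAC212.04c and SPAC212.01c genes, listed under a DUF999 family, lie closer to the telomere. Their ratios were -0.04 ± 0.16 and 0.27 ± 0.18, and neither passed. Whether they are related to the ftm genes was not checked. Genes with ftm names at other chromosome ends were also called lower. These were ftm3 (-1.69) and ftm4 (-2.73) at the right end of chromosome I, and ftm7 (-2.87) at the right end of chromosome II. Probes of related genes may pick up each other's transcripts, or those of related genes at other ends. Such sharing was not tested, and each value is uncertain to that extent.

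A second lower pair followed, with SPAC977.03 between the pairs. SPAC977.04 had a signal of 34220.5 in channel B against 87410.5 in channel A on array 1, and 30428.5 against 78702.5 on array 2. Its ratio was -1.56 ± 0.05 (adjusted p = 0.000235). SPAC977.05c had a signal of 25843.5 in channel B against 91871.5 in channel A on array 1, and 33439 against 97125 on array 2. Its ratio was -1.86 ± 0.13 (adjusted p = 0.000101), which is 3.64-fold brighter in channel A. All 8 spots of the pair were brighter in channel A. Their neighbours SPAC977.03, of a predicted methyltransferase, and SPAC977.06 had opposite signs on the arrays and did not pass. With spots of flag C only, SPAC977.03 was called lower at -0.88 (adjusted p = 0.0353). That setting dropped an array 2 spot at 0.73 and kept an array 1 spot at -2.12. The kept spot read 160746 in channel B against 535397 in channel A, far from its duplicate (26653 against 38108), so the call is uncertain.

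The genes from pfl6 to plb4 did not pass. The gene pfl6, for a flocculin-type cell surface glycoprotein, had 0.05 on array 1 and -0.60 on array 2. The ratio of ayr2, which encodes an acyldihydroxyacetone phosphate reductase of lipid synthesis, was -0.39 ± 0.08 (adjusted p = 0.109), and that of plb4, for a phospholipase B, was -0.30 ± 0.16 (adjusted p = 0.202).

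Beyond them came 3 members higher in channel B. The fluoride channel gene fex1, whose product exports fluoride from the cell, had a signal of 120109 in channel B against 60114.5 in channel A on array 1, and 137918.5 against 66680.5 on array 2. Its ratios of 0.88 and 0.79 gave 0.83 ± 0.06 (adjusted p = 0.00585). Next to it SPAC977.12, of a predicted asparaginase, was higher at 0.73 ± 0.30 (adjusted p = 0.0154), from 0.52 on array 1 and 0.95 on array 2. The pseudogene SPAC977.13c between them and SPAC977.14c had 0.15 and did not pass.

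The highest member was SPAC977.14c, of a predicted aldo-keto reductase, an enzyme class that reduces aldehydes and ketones. Its signal was 414506.5 in channel B against 79415.5 in channel A on array 1, and 577538.5 against 99969.5 on array 2. The ratios of 2.13 and 2.15 differed little between arrays, and their mean was 2.14 ± 0.01 (adjusted p = 4.24e-05), or 4.41-fold. Before normalization, its spots were up to 5.91-fold brighter in channel B than in channel A, on the linear scale. SPAC977.17, of the water and glycerol channel family, lies a few genes further in and was lower. Its signal was 46124 in channel B against 71251.5 in channel A on array 1, and 59366 against 83130 on array 2, and its ratio was -0.74 ± 0.02 (adjusted p = 0.0102). The dak2 gene, left out by the choice, overlaps SPAC977.17 in the gene table and had a ratio of -0.86 (adjusted p = 0.00516).

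**Figure D2:**
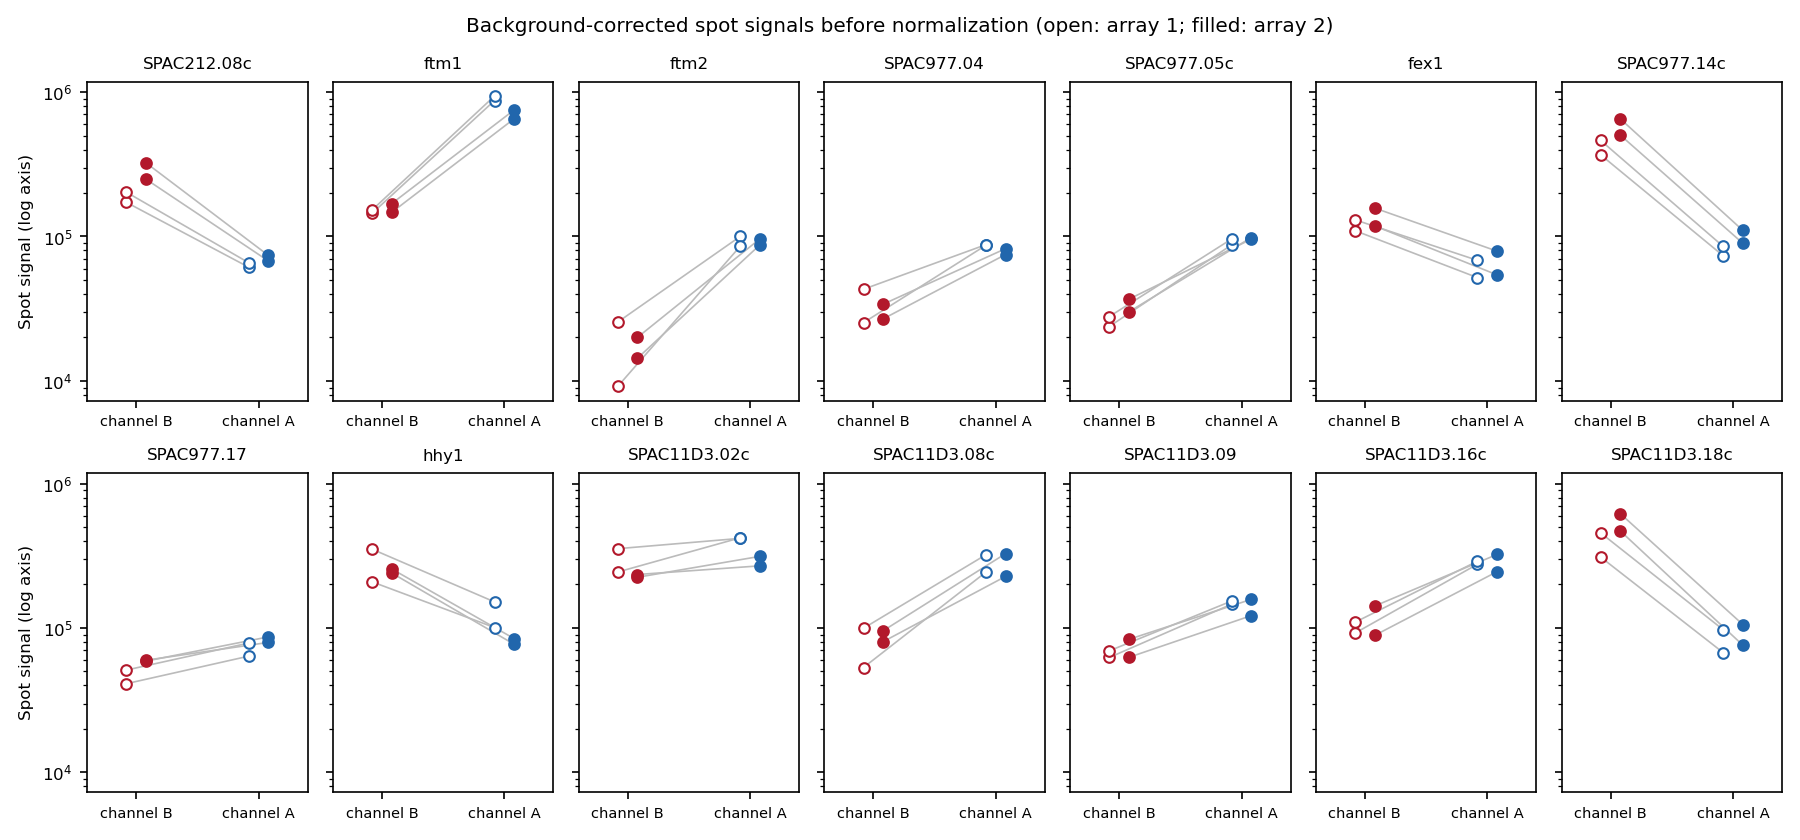
Background-corrected spot signal (vertical log axis) in channel B and channel A for the 14 members past both the adjusted p and 1.5-fold on both arrays. Each line joins the channels of a spot, with open points for array 1 and filled points for array 2. For ftm1 all 4 spots fell between 144489 and 168716 in channel B and between 652800 and 938442 in channel A.

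Among the SPAC1F8 genes 3 of 4 were tested, and 1 passed, where 27.9% of all genes tested passed. The gene hhy1, of a predicted hydrolase, had a signal of 280014.5 in channel B against 126146.5 in channel A on array 1, and 248469.5 against 80803.5 on array 2. Its ratios of 0.88 and 1.30 gave 1.09 ± 0.29 (adjusted p = 0.00233). The flocculin-type gene pfl8 had 0.27 ± 0.02 and SPAC1F8.08 had 0.34 ± 0.07, with the same sign on both arrays and adjusted p of 0.243 and 0.151.

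The SPAC11D3 genes held 15 tested members, of which 1 was higher and 5 lower, with a median of -0.36. Thus 40% passed, against 27.9% of all genes tested. SPAC11D3.02c, of a predicted acetyltransferase, was lower at -0.85 ± 0.17 (adjusted p = 0.00618), with a signal of 299041 in channel B against 419148.5 in channel A on array 1, and 229420 against 291200.5 on array 2. Next to it SPAC11D3.03c was lower at -0.63 ± 0.25 (adjusted p = 0.0257). The transporter gene mfs2, of the major facilitator superfamily, had 0.23 ± 0.13, and SPAC11D3.06, of the MATE transporter family, had -0.26 ± 0.29. Neither transporter gene passed. SPAC11D3.01c (-0.46), SPAC11D3.04c (0.34), SPAC11D3.10 (0.47) and SPAC11D3.11c (-0.36), of no named function, did not pass either. With median centring SPAC11D3.01c was called lower (adjusted p = 0.0428).

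SPAC11D3.08c, of a predicted amino acid permease, had a signal of 76413.5 in channel B against 282732 in channel A on array 1, and 87986.5 against 277361.5 on array 2. Its ratio was -2.05 ± 0.12 (adjusted p = 5.67e-05), so that channel A was 4.15-fold brighter. Its neighbour SPAC11D3.09 encodes a predicted agmatinase, an enzyme that splits agmatine into putrescine and urea. It had a signal of 65952.5 in channel B against 150000.5 in channel A on array 1, and 73017 against 139832 on array 2. The ratio was -1.27 ± 0.07 (adjusted p = 0.000724). For each gene of the pair, every channel B spot was dimmer than every channel A spot.

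Further inward, members lay among genes of 5-oxoproline and D-glutamate use that the choice left out and that were higher in channel B. SPAC11D3.14c, SPAC11D3.15 and dgc1 had mean ratios of 1.97, 2.96 and 3.75. The SPAC11D3.14c spots disagreed on array 1, at 2.61 and -0.07, so its ratio was 1.27 there and 2.66 on array 2. SPAC11D3.16c, directly next to SPAC11D3.15, was lower. Its signal was 100796.5 in channel B against 283296.5 in channel A on array 1, and 115294.5 against 284223 on array 2. The ratios of -1.72 and -1.67 gave -1.70 ± 0.03 (adjusted p = 0.00015), so that neighbouring genes differed in direction on both arrays.

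SPAC11D3.18c, of a predicted membrane transporter, lies next to dgc1 and was higher. Its signal was 382012.5 in channel B against 82359 in channel A on array 1, and 543966 against 90859 on array 2. The ratios of 1.97 and 2.22 gave 2.10 ± 0.17 (adjusted p = 5.66e-05), or 4.28-fold. On the other side of dgc1, the DJ-1 family gene hsp3102 was lower at -0.88 ± 0.64 (adjusted p = 0.0193), from -1.34 on array 1 and -0.43 on array 2. Its array 1 spots were unlike, at 34672 in channel B against 100808 in channel A, and 9857 against 19065. The array 2 spots read 19592 against 22564 and 14733 against 17922, so the call leans on a discordant spot. In channel B hsp3102 was not well above background on array 2. The other DJ-1 family member, hsp3104, had 0.41 ± 0.19 and did not pass (adjusted p = 0.102).

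Of 10 tested SPAC5H10 genes, 1 was higher and 4 lower, with a median of -0.47, where 27.9% of all genes passed. None of the 10 reached 1.5-fold on both arrays, against 17.7% of all genes. Besides hsp3102, the lower ones were SPAC5H10.10 (-0.57 ± 0.26), of the old yellow enzyme family of NADPH dehydrogenases, gmh1 (-0.58 ± 0.21), of the galactosyltransferases that decorate cell surface glycans, and SPAC5H10.07 (-0.51 ± 0.14). Their adjusted p ranged from 0.0347 to 0.0477, and in channel B gmh1 and SPAC5H10.07 were not well above background on array 2. With print-tip loess SPAC5H10.10 (adjusted p = 0.0554) and SPAC5H10.07 (adjusted p = 0.0851) did not pass. Nor did SPAC5H10.10 with median centring (adjusted p = 0.0624) or SPAC5H10.07 without the filter on dim genes (adjusted p = 0.0535). SPAC5H10.04, the other old yellow enzyme gene, had -0.14 ± 0.21, and gmh2, the other tested galactosyltransferase gene, had 0.37 ± 0.03.

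SPAC5H10.03, of the phosphoglycerate mutase family, had -0.42 ± 0.49 and did not pass.

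The pantothenate synthesis genes pan6, for the ligase that joins pantoate and beta-alanine, and ecm31, for the ketopantoate hydroxymethyltransferase, overlap in the gene table. Their ratios were 0.44 ± 0.44 and -0.53 ± 0.51, and neither passed. On array 1, ecm31 rests on 1 spot, and with median centring it was called lower (adjusted p = 0.0489). SPAC5H10.05c, of the NADPH quinone oxidoreductase family, was called higher at 1.12 ± 1.08 (adjusted p = 0.0276), but array 1 gave 0.35 and array 2 gave 1.88. In channel A it was not well above background on array 2. Among neighbours of the region, 7 pairs overlap in the gene table, each with at least 1 member, and the sources used here do not say whether the probes tell strands apart.

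**Figure D3:**
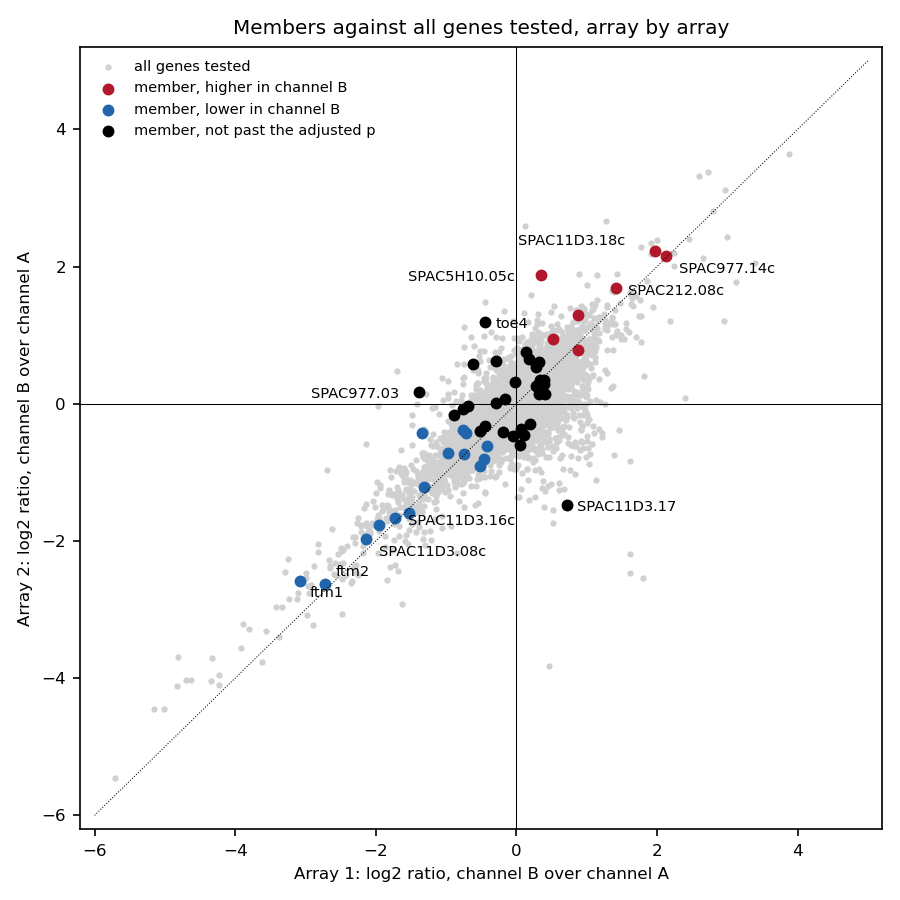
Log2 ratio on array 1 (horizontal axis) against that on array 2 (vertical axis) for all 4903 genes tested (grey) and the 51 members (coloured or black). The dotted line marks equal ratios. SPAC5H10.05c, called higher, lies off it at 0.35 and 1.88, and SPAC11D3.17 stands at 0.72 and -1.47.

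Of the 51 members, 39 had the same sign on both arrays and 12 did not, and over all genes 24.2% had opposite signs. None of the 12 passed the adjusted p. The duplicate spots of a member differed by a median of 0.25 on array 1 and 0.21 on array 2 on the log2 scale, against 0.19 and 0.14 over all genes tested. On at least 1 array, 8 members had duplicates that differed by over 1, and 3 of them passed the adjusted p, namely SPAC212.03, ftm2 and SPAC5H10.05c.

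SPAC11D3.17, of a predicted zinc finger transcription factor, was the only member changed 1.5-fold in opposite directions, with 0.72 on array 1 and -1.47 on array 2. Its mean of -0.38 ± 1.55 did not pass (adjusted p = 0.521). On array 1 its duplicate spots had ratios of -1.65 and 3.085, a gap of 4.74 that was also the largest on that array over all genes tested. On array 2 they had -1.27 and -1.68, so 3 of the 4 spots were brighter in channel A. The array 1 mean of 0.72 thus rests on 1 discordant spot. That spot read 228387 in channel B against 24598 in channel A, near a SPAC11D3.14c spot of array 1 (231132 against 34458). The spot listed next to it, for SPAC11D3.14c, read 23444 against 22696. Why these neighbouring spots were unlike their duplicates was not tested. For toe4, of a predicted zinc cluster transcription factor, the spots ran from -0.90 to 0.00 on array 1 and from 0.57 to 1.82 on array 2, and the mean of 0.37 ± 1.16 did not pass.

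**Figure D4:**
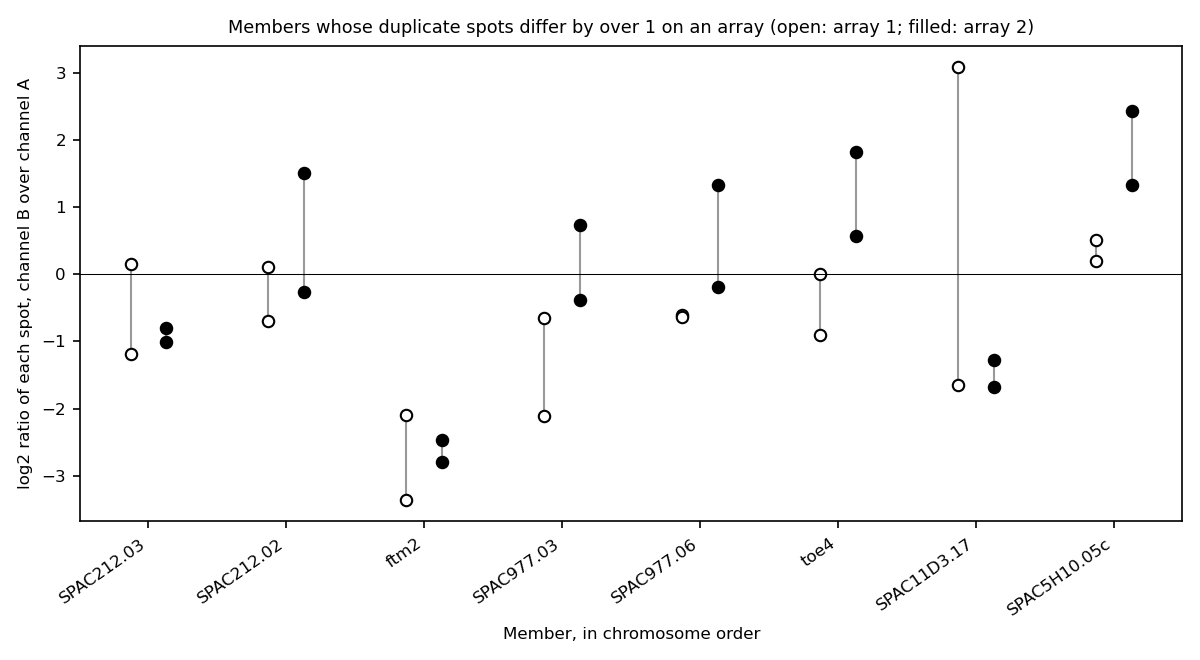
Log2 ratio of each spot (vertical axis) for the 8 members whose duplicate spots differed by over 1 on an array (horizontal axis), with open points for array 1 and filled points for array 2. All 4 spots of ftm2 lie at -2.09 or below, whereas the spots of SPAC11D3.17 on array 1 lie at -1.65 and 3.085.

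By role, the members with a known or predicted function went both ways. The shares called among all 4903 genes, 11.3% higher and 16.6% lower, stand beside these counts, and no role was tested against them. Enzyme genes counted 14 tested, 4 of them higher and 3 lower, and their median was -0.35. Of 6 tested transporter genes 2 were higher (fex1 and SPAC11D3.18c) and 2 lower (SPAC977.17 and SPAC11D3.08c), with a median of -0.02. Neither of the 2 transcription factor genes passed, nor did any of the 4 tested pseudogenes, of which SPAC212.09c passed with median centring. Among 14 tested genes of no named function 1 was higher and 6 lower, with a median of -0.41.

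Other stretches of 51 tested genes were set beside the members, without a test of the difference. Unlike the members, which lack the 9 left-out genes, those stretches were taken without leaving any gene out, so the shares are not strictly comparable. Of the 51 genes next inward on chromosome I, 33.3% passed, 8 higher and 9 lower, and 21.6% changed 1.5-fold on both arrays, against 27.5% of the members. At the right end of chromosome I, 49% passed, 11 higher and 14 lower, and 43.1% changed 1.5-fold. At the left end of chromosome II 43.1% passed, 3 higher and 19 lower, and 33.3% changed 1.5-fold. At its right end 33.3% passed, 1 higher and 16 lower, and 29.4% changed 1.5-fold. The members' median of -0.17 compares with 0.03 next inward, -0.14 at the right end of chromosome I, and -0.20 and -0.21 at the left and right ends of chromosome II.

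**Figure D5:**
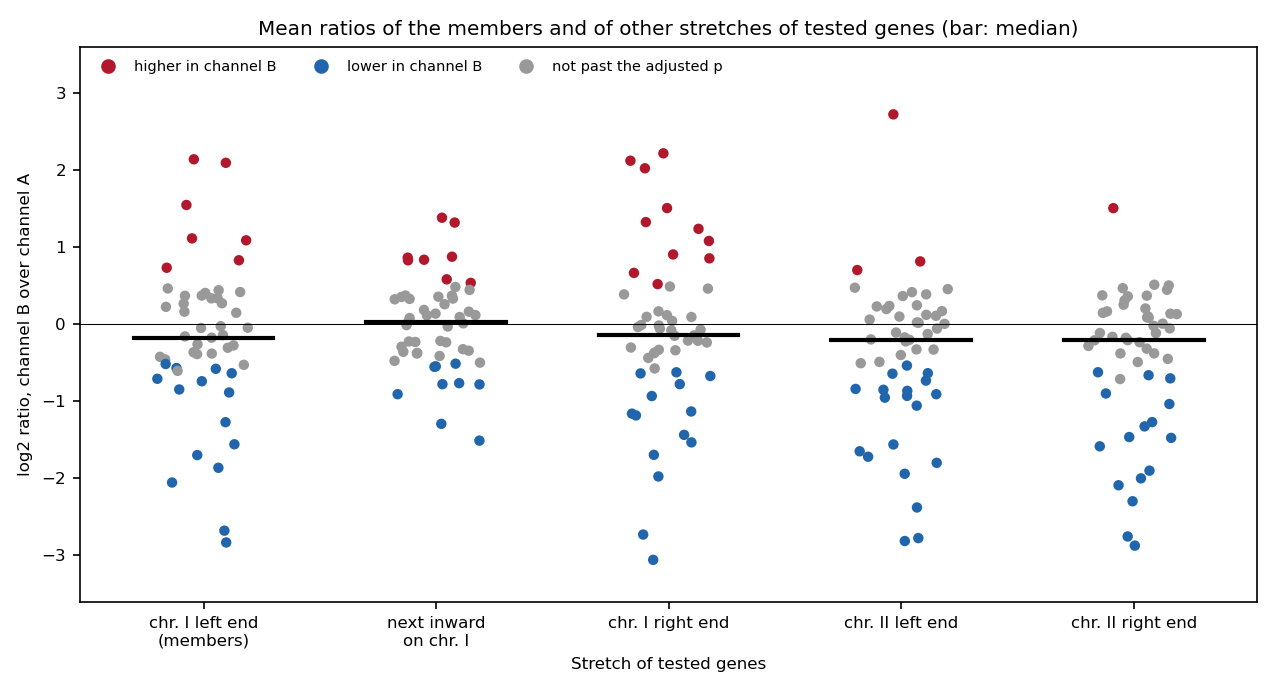
Mean ratio, channel B over channel A, on the log2 scale (vertical axis) for the members and for other stretches of 51 tested genes (horizontal axis). Each point is a gene, coloured by its call, and the bar is the median, which runs from -0.21 at the right end of chromosome II to 0.03 next inward on chromosome I.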

How the data were processed

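For each spot, the deposited files give a background-corrected intensity and a background intensity in channels A and B, a linear ratio of the channels and a saturation factor as a fraction, per the file headers. A further table deposited by the authors was made by lowess normalization, per the design text. Set against the scanner files, these values deposited by the authors followed a log10 ratio, channel B over A, with a median of 0.01 per array, but in the first 5760 rows only (r = 0.916 and 0.941, against 0.0356 and 0.0575 for the rest). Neither scanner software nor annotation is given in the sources used here.

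An offset of 50 was added to the corrected intensity. The log2 ratio was normalized within each array by loess (span 0.3, control spots at weight 0), and spots of a probe were averaged. Genes below the 95th percentile of empty, buffer and E. coli spots (spots at 0 included) in both channels of either array were left out; which control spots to use was settled after seeing how many genes each choice kept. Ratios were tested against 0 with limma (3.58.1; R 4.3.3), two-sided, with Benjamini-Hochberg adjustment over 4903 genes, on 1 residual and 7.52 prior degrees of freedom, and the procedure was tested on simulated data. With 2 arrays, an exact sign-flip test of a gene cannot go below p = 0.5. "Not well above background" means below that percentile. A member below it in a channel on both arrays is given no exact fold. The number of arrays limits the precision.

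Locus tags paired 3466 of 5006 probe names with the ASM294v3 table, symbols 945 and synonyms 379. Gene order came from that table. The 5 genes without a matched probe include SPAC977.10 (nhe1), since the probe name sod2 fits more than 1 gene. Values per array are given for members past the adjusted p and 1.5-fold on both arrays, and for genes named by role. That table gives no descriptions, so roles are from general knowledge. The members and lists were chosen with earlier results of these data known. The planned search for near-identical copies and promoter motifs was not done here.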

Additional observations from a re-analysis of the deposited data

How the results depend on the processing

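With median centring, print-tip loess, normexp background correction, without saturated spots, with flag C spots only or without the filter on dim genes, 7 or 8 members were higher and 13 to 16 lower. Under these settings 39.2% to 47.1% of the members passed, against 25.6% to 32.7% of all genes. The median moved to -0.28 with flag C spots only. All 7 higher members passed in each of these 6 alternatives, and 13 of the 15 lower members did, all but SPAC5H10.07 and SPAC5H10.10. With the authors' values, 0 members passed in either direction in limma (24 had an unadjusted p under 0.05, against 30 here), and 0 of 4860 genes did; the cause was not tested. On 1 array alone, the count changed 1.5-fold ran from 6 to 12 higher and from 14 to 17 lower, and the median from -0.19 to -0.077. The matching counts over all genes are not given. Chosen after seeing the data, leaving out genes with duplicate spots over 1 apart gave 7 higher and 15 lower of 43 members (51.2%). Over all genes left in, 33.7% passed. Of the members called before and still measured, 6 of 6 higher and 13 of 13 lower passed.

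The sign of array 1 was also turned, as a dye swap with fixed channels would require. Then 0 members passed higher and 0 lower in limma (0 also at an unadjusted p under 0.05), and 0 of 4903 genes passed. As the arrays' ratios ran the same way, turning 1 array cancels what they share, so this setting cannot test the members' calls. On both arrays 0 members changed 1.5-fold higher and 1 lower, and the median was 0.0835. Under that sign the ratios turned to 0.25 for ftm1, 0.0473 for ftm2, 0.0924 for SPAC977.05c, -0.0456 for fex1, 0.0133 for SPAC977.17, 0.12 for SPAC11D3.02c, 0.0835 for SPAC11D3.08c, 0.0497 for SPAC11D3.09, 0.0247 for SPAC11D3.16c, 0.45 for hsp3102, 0.19 for SPAC5H10.10 and 0.15 for gmh1. Each ratio already pairs the channels of an array, and both arrays belong to a single group, so no further pairing was made. Members dim in a channel on both arrays, SPAC212.03 and ftm2, have no exact fold.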

Other observations

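The 4 members with a probe that were not tested were SPAC212.07c, SPAC212.06c, SPAC977.15 and shu1, the gene of a cell surface haem receptor. Without the filter on dim genes, SPAC977.15, of a predicted dienelactone hydrolase, had a ratio of 0.79 (adjusted p = 0.00961 in limma), with 0.87 on array 1 and 0.72 on array 2. Under the same fit shu1 had -0.51 (adjusted p = 0.0535) and SPAC212.06c, of a truncated helicase, had 0.14 (adjusted p = 0.554), and neither passed. SPAC212.07c, a pseudogene, had no signal on array 2.

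Of the 9 genes left out by the choice, 8 were tested and all passed, 5 higher and 3 lower in channel B. Over all genes tested 27.9% passed. Besides SPAC11D3.14c, SPAC11D3.15 and dgc1, the siderophore transporter gene str3 and pdc101 were called higher, and dak2, the spore coat gene isp3 (-1.30) and adh4 (-1.69) were lower. In channel A, str3 lay below the background limit on both arrays, and all 4 pdc101 spots were saturated, so neither has an exact ratio. These genes lie among the members, and they were left out by name and not by position.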
